A study of Bos taurus with 4 samples.

Results

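Bovine MHC class II genes were followed through BOLA-DRA, BOLA-DMA and BOLA-DMB, which are 3 of the 444 genes named on a bovine cDNA array. The members were taken from the platform annotation, updated by gene ID, and each of the 3 genes had 1 element, a group of 3 consecutive spots that carry the same cDNA. They therefore occupy 3 of 1296 elements and 9 of 3888 spots. All 3 elements had a value on every array, so all 3 were tested. BOLA-DRA (gene ID 506214) is element 211, BOLA-DMB (gene ID 282491) is element 248 and BOLA-DMA (gene ID 282490) is element 606.

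The RNA came from blood neutrophils of parturient cows. One pool of 4 cows stands for each of day -7, day 0, day 0.25 and day 1 around calving on day 0. No treatment or genotype is given in the labels, nor the age or breed of the cows, nor whether the same cows served every day. Each of 4 two-channel arrays compared 2 pools, named here by channel 1 and then channel 2: day 0.25/day -7, day 1/day 0, day -7/day 1 and day 0/day 0.25. Every pool met 2 others, once from each channel, so the arrays close a loop. With 1 pool per day there are no replicate pools, and the tests below compare these pools beyond array error only.

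MHC class II molecules carry peptides from engulfed material to the cell surface, where CD4+ T cells read them. BOLA-DRA encodes the alpha chain of the DR molecule that displays the peptide, while BOLA-DMA and BOLA-DMB encode the alpha and beta chains of DM, an endosomal helper that removes the placeholder peptide CLIP and lets other peptides bind. B cells, dendritic cells and monocytes make these proteins in quantity. Resting blood neutrophils are known for carrying little class II, which cytokines such as interferon gamma and GM-CSF can raise. In the current bovine assembly, used here for names and gene order only, BOLA-DMB and BOLA-DMA are neighbouring protein-coding genes and BRD2 follows them, while BOLA-DRA stands beside BOLA-DRB2.

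The values are log2 ratios of the pools, set so that the median element of each array is 0. Which channel is the numerator was not stated for any array, so a positive value means more signal in channel 1 only if the ratios run as the labels list the channels. The deposited ratios ran from 0.574 to 1.53 over all spots, and it is unknown whether intensities were transformed before the ratio was taken. Sizes are given on the log2 scale for that reason, and none as a fold change in RNA. The SD over elements was 0.0458 on day 0.25/day -7, 0.0177 on day 1/day 0, 0.0324 on day -7/day 1 and 0.0148 on day 0/day 0.25. No intensities were used here, so the signal over background of the class II spots is unknown. None of the 28 neutrophil genes listed as markers was among the named elements, nor any of the 13 monocyte and macrophage, 11 dendritic cell, 17 T and NK cell, 9 eosinophil and basophil or 8 platelet and erythroid markers. The labelled cell type could therefore not be checked against these genes. In pooled RNA, fewer cells of a type and less RNA per cell cannot be told apart.

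The mean of the BOLA-DRA spots lay above the array median on all 4 arrays, clearly so on 1 of them. Its 3 spots read 0.00145, 0.0327 and 0.00447 on day 0.25/day -7, with a mean of 0.0129. On day 1/day 0 they read 0.0207, -0.00210 and 0.00783, with a mean of 0.00880. These 2 arrays had spots close to 0 beside 1 clearly positive spot each. On day -7/day 1 the spots were 0.0484, 0.0446 and 0.0337 and the mean 0.0422. On day 0/day 0.25 they were 0.0174, -0.000770 and -0.00888, with a mean of 0.00260 that rests on the first spot. Without that spot the mean is -0.00482, and the median of the 3 spots is -0.000770. Day -7 over day 1 was thus the array on which BOLA-DRA stood farthest from 0 and its spots lay closest together, with an SD between spots of 0.00766 against 0.0114 to 0.0173 on the other 3. There it exceeded 91.4% of all elements, while on the other arrays it exceeded 58.5% to 74.2%. Day -7/day 1 also had the lowest median SD between spots over all elements, at 0.00868 against 0.00889 to 0.0239 on the others. The SD between the BOLA-DRA spots exceeded that of 46.0% of elements on day -7/day 1 and of 36.6% on day 0.25/day -7. On day 1/day 0 and day 0/day 0.25 it exceeded 49.2% and 67.1%.

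BOLA-DMA, the alpha chain of DM, stayed close to the middle of each array. On day 0.25/day -7 its spots read 0.0516, 0.00102 and -0.00215, with a mean of 0.0168 that rests on the first spot. The median of the 3 was 0.00102. On day 1/day 0 the spots were 0.00136, 0.00150 and -0.00268, with a mean of 6.24e-05. On day -7/day 1 they were 0.0109, 0.00933 and -0.000901, with a mean of 0.00645. On day 0/day 0.25 they were -0.00135, -0.00352 and -0.00164, with a mean of -0.00217. Of its 12 spot values 6 were above and 6 below the array median, and 58.0% to 99.8% of all elements lay farther from 0 than BOLA-DMA did on the 4 arrays.

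BOLA-DMB, the partner chain, behaved differently on the arrays. All of its 12 spot values were below the array median, which held for 2.11% of the 1281 elements with 12 values (1.09% had all 12 above it). The spots were -0.0747, -0.0779 and -0.0492 on day 0.25/day -7, with a mean of -0.0673. On day 1/day 0 they were -0.0244, -0.0267 and -0.0188, with a mean of -0.0233. Only 7.03% and 8.11% of the elements had lower means on these 2 arrays.

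The remaining arrays gave BOLA-DMB values of the same sign. Its spots were -0.0269, -0.0270 and -0.0194 on day -7/day 1, with a mean of -0.0244. On day 0/day 0.25 they were -0.00975, -0.00859 and -0.0116, with a mean of -0.00999. Lower means were held by 14.4% of the elements on day -7/day 1 and by 23.9% on day 0/day 0.25. The arrays with the wider spread over all elements also gave the larger BOLA-DMB values. In units of the array's own SD the values were -1.47 on day 0.25/day -7, -1.31 on day 1/day 0, -0.753 on day -7/day 1 and -0.677 on day 0/day 0.25. Its spots lay close together, with an SD between spots of 0.00154 to 0.00437 on the last 3 arrays, where the median element had 0.00868 to 0.0117.

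**Figure D1:**
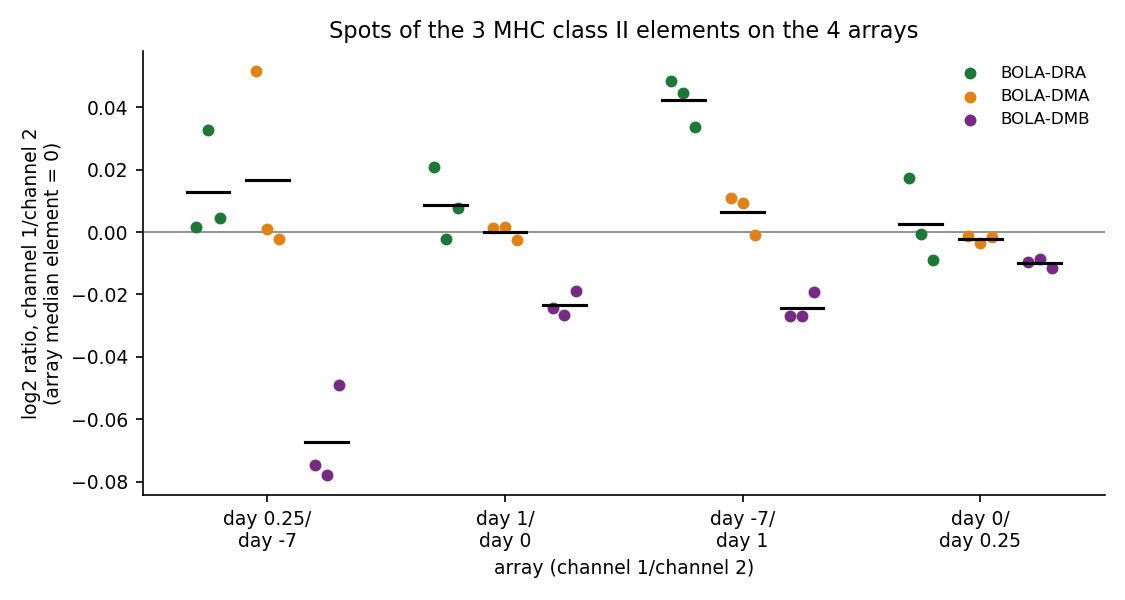
Log2 ratio of every class II spot (points, in the order of the element's 3 spots) and the element mean (black bars) on each of the 4 arrays, with the array's median element at 0 (grey line). The BOLA-DMB spots lie below 0 on every array, the BOLA-DRA spots lie highest on day -7/day 1, and BOLA-DMA lies near 0 apart from 1 spot at 0.0516.

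The spots of the DM chains did not overlap on any array. The means of BOLA-DMA exceeded those of BOLA-DMB by 0.0841 on day 0.25/day -7, 0.0234 on day 1/day 0, 0.0309 on day -7/day 1 and 0.00782 on day 0/day 0.25, and on each array every BOLA-DMA spot was above every BOLA-DMB spot. BOLA-DRA spots were clear of the BOLA-DMB spots on 3 arrays and overlapped them on day 0/day 0.25. BOLA-DRA and BOLA-DMA overlapped on 3 arrays and were apart on day -7/day 1, where they differed by 0.0358. These are differences between elements in their ratios, not in their levels, and the 3 spots of an element are repeats of 1 cDNA on 1 array. The share of all element pairs whose spots are clear of each other was not computed. The separation is therefore not read as particular to these genes. On day -7/day 1 the median SD between spots was 0.00868, against an SD over elements of 0.0324.

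**Figure D2:**
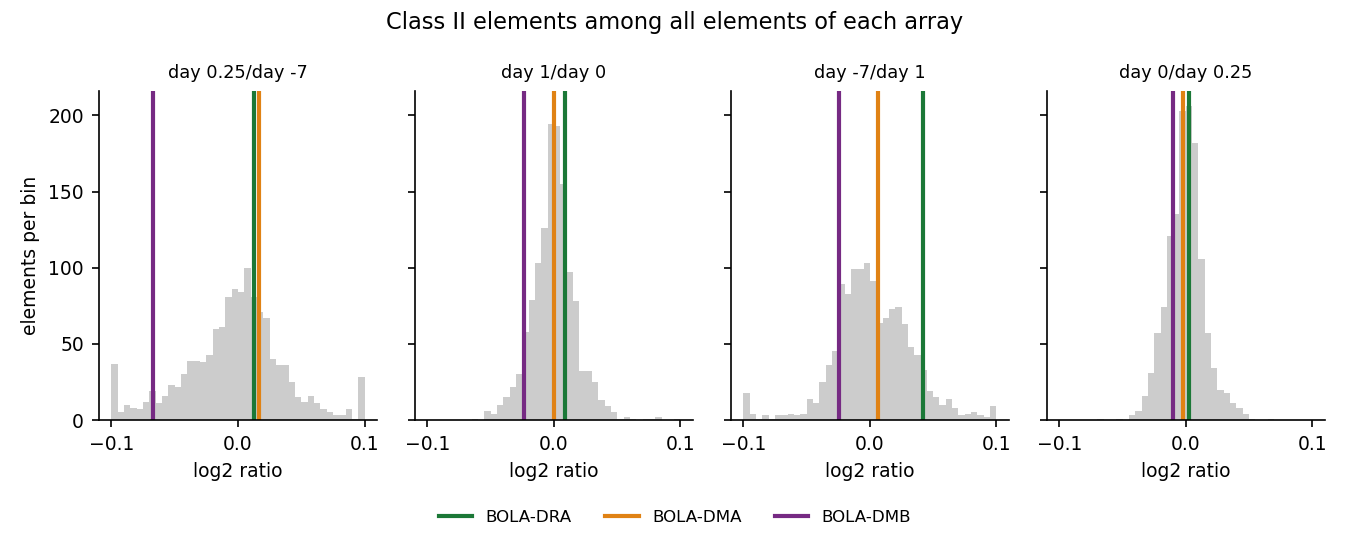
Histograms of the log2 ratios of all elements on each array (bins of equal width, elements beyond 0.1 or -0.1 counted in the end bins) with the element means of BOLA-DRA, BOLA-DMA and BOLA-DMB as vertical lines. BOLA-DMB lies left of the median element on each array, nearest to it on day 0/day 0.25, and BOLA-DRA reaches the right flank on day -7/day 1.

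Tested over its 3 spots on 1 array at a time with limma, where the error covers repeat spots of that array and nothing else, BOLA-DRA passed on day -7/day 1 (0.0422 ± 0.00455, SE, adjusted p = 0.0132). BOLA-DMB passed there with the opposite sign (-0.0244 ± 0.00365, SE, adjusted p = 0.0191), and BOLA-DMA did not (adjusted p = 0.288). On that array 42.2% of all elements passed, so 2 of 3 members is a count from an array on which many elements passed. No member passed on the other arrays, where the share of elements past the threshold was 0% on day 0.25/day -7, 0.0772% on day 1/day 0 and 0% on day 0/day 0.25. The limma adjusted p of BOLA-DMB on these 3 was 0.171, 0.136 and 0.194. Before adjustment BOLA-DMB was below 0.05 on all 4 arrays, BOLA-DRA on 1 and BOLA-DMA on none. The share of elements below 0.05 on all 4 arrays was not computed, so this count is not read as particular to BOLA-DMB. The shares of all elements below 0.05 before adjustment were 19.6% on day 0.25/day -7, 19.6% on day 1/day 0, 52.7% on day -7/day 1 and 23.3% on day 0/day 0.25.

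The comparisons of the pools were taken from 1 limma fit of the loop to all 4 arrays. A difference with a direct array uses that array and the path through the other 3. Day 0 minus day -7 and day 1 minus day 0.25 have no direct array and come only from paths through another pool. The F test for any difference among the 4 pools gave an adjusted p of 1.00 for each member (limma, unadjusted p = 0.742 for BOLA-DRA, 0.952 for BOLA-DMA and 0.605 for BOLA-DMB), with 0.541% of all elements past the threshold. Of the 18 pairwise differences of the members, 6 were positive and 12 negative. None passed, none had an unadjusted p below 0.05, the lowest being 0.207, and all 18 of the 95% confidence intervals held 0. Before adjustment 7.18% of all elements were below 0.05 in the F test. For day 0, day 0.25 and day 1 minus day -7 this share was 6.02%, 12.1% and 5.64%, and for day 0.25 minus day 0, day 1 minus day 0 and day 1 minus day 0.25 it was 0.309%, 0.463% and 3.24%.

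For BOLA-DRA the differences against day -7 were -0.0178 ± 0.0271 (SE) at day 0, -0.00374 ± 0.0235 at day 0.25 and -0.0256 ± 0.0235 at day 1. The limma adjusted p was 0.993, 0.978 and 1.00, and the intervals ran from -0.0770 to 0.0414, from -0.0550 to 0.0475 and from -0.0769 to 0.0257. The display chain thus had its most negative value at day 1, by an amount close to its standard error. In these 3 comparisons 0.309%, 2.01% and 0.309% of all elements passed.

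For BOLA-DMA the differences against day -7 were 0.00408 ± 0.0256 (SE) at day 0, 0.0115 ± 0.0221 at day 0.25 and -0.00115 ± 0.0221 at day 1, with limma adjusted p of 0.993, 0.936 and 1.00. Most elements had larger differences than BOLA-DMA in each of these, namely 86.8%, 65.9% and 94.4% of them. Its intervals reached from -0.0517 to 0.0598 over the 3 comparisons.

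For BOLA-DMB the values against day -7 were -0.0148 ± 0.0312 (SE) at day 0, -0.0360 ± 0.0270 at day 0.25 and -0.00683 ± 0.0270 at day 1, with limma adjusted p of 0.993, 0.691 and 1.00. The value at day 0.25 was the largest of any member in any comparison, and its interval ran from -0.0949 to 0.0229. In the same comparison the smallest difference that passed for any element was 0.0974 in size, and 22.6% of all elements were larger than BOLA-DMB. With the sign of day 0.25/day -7 turned, BOLA-DMB stood at 0.0649.

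Between the later pools no class II difference passed either. Day 0.25 minus day 0 was 0.0140 ± 0.0235 (SE) for BOLA-DRA, 0.00746 ± 0.0221 for BOLA-DMA and -0.0213 ± 0.0270 for BOLA-DMB. Day 1 minus day 0 was -0.00783 ± 0.0235, -0.00523 ± 0.0221 and 0.00795 ± 0.0270 in the same order of genes. Day 1 minus day 0.25 was -0.0219 ± 0.0271, -0.0127 ± 0.0256 and 0.0292 ± 0.0312. The members and all other elements were below the threshold in these 3 comparisons (0%, 0% and 0% of elements in limma, with 4, 6 and 42 elements at an unadjusted p below 0.05). BOLA-DRA and BOLA-DMA had the same sign in each of these comparisons and BOLA-DMB the opposite one, with every interval holding 0. The comparisons share pools and arrays, so such signs are not independent of one another.

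**Figure D3:**
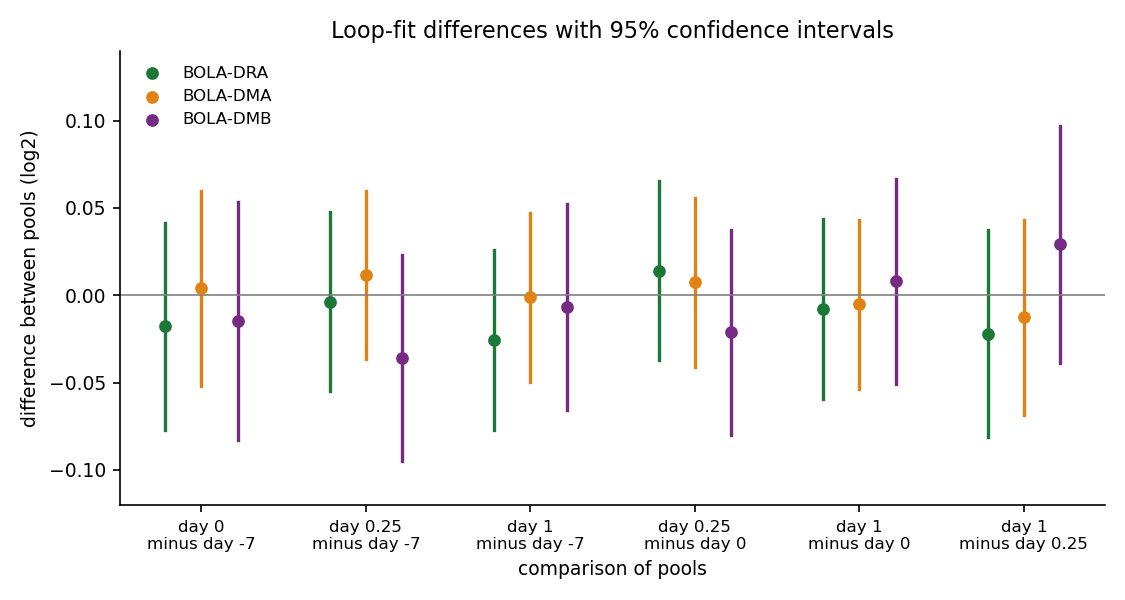
Differences between pools from the loop fit (points, log2) with 95% confidence intervals (lines) for the 3 class II genes in 6 comparisons. Every interval crosses 0 (grey line), and the lowest and highest bounds are -0.0949 and 0.0972, both for BOLA-DMB.

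The 4 ratios of an element add up to 0 around the loop apart from noise and anything that stays with a channel, but only under certain conditions. All 4 ratios must run the same way between the channels, and each pool must be the same RNA on every array that carries it. Neither condition is given in these sources, and what leaves a sum away from 0 was not tested. For BOLA-DMB the sum was -0.125, and 5.17% of all elements had a larger sum in size. The sum was 0.0665 for BOLA-DRA, with 23.5% of elements larger, and 0.0212 for BOLA-DMA, with 68.6% larger, while the SD of the sum over all elements was 0.0614. BOLA-DMB was thus the member whose loop stayed most open. It lay below the median on all 4 arrays, as did 8.34% of the elements, and BOLA-DRA lay above on all 4, as did 10.1%, although on day 0/day 0.25 it did so through 1 spot. Channel 1 held a different pool on each array. A part equal on all arrays, which is the mean of the 4 values (-0.0312 per array for BOLA-DMB, 0.0166 for BOLA-DRA and 0.00529 for BOLA-DMA), cancels from the fitted differences and enters their error instead. Neither channel's dye is given in these sources, and the part of a dye or channel in these values was not tested.

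Because the sums were not 0, the direct array and the other 3 arrays gave different answers. For day 0.25 minus day -7, BOLA-DMB stood at -0.0673 on the direct array and at 0.0577 from the other 3. For day 1 minus day -7 it stood at 0.0244 on the direct array and at -0.101 from the other 3. The direct array and the others gave opposite signs in all 4 comparisons that have a direct array, both for BOLA-DMB and for BOLA-DRA, which is bound to happen for an element whose 4 ratios share a sign. For day 1 minus day -7, BOLA-DRA stood at -0.0422 on the direct array, on which it passed the spot test, and at 0.0243 from the other 3. For day 0.25 minus day -7 it stood at 0.0129 and -0.0536, for day 1 minus day 0 at 0.00880 and -0.0577, and for day 0.25 minus day 0 at -0.00260 and 0.0639. BOLA-DMA differed least, with 0.0168 and -0.00434 for day 0.25 minus day -7. With any 1 array left out, 37 of 72 member values kept the sign of the fit to all arrays and 35 changed it. Each such fit is exact and returns the value of a single path between the pools. The 72 values therefore repeat each other and are not separate checks.

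**Figure D4:**
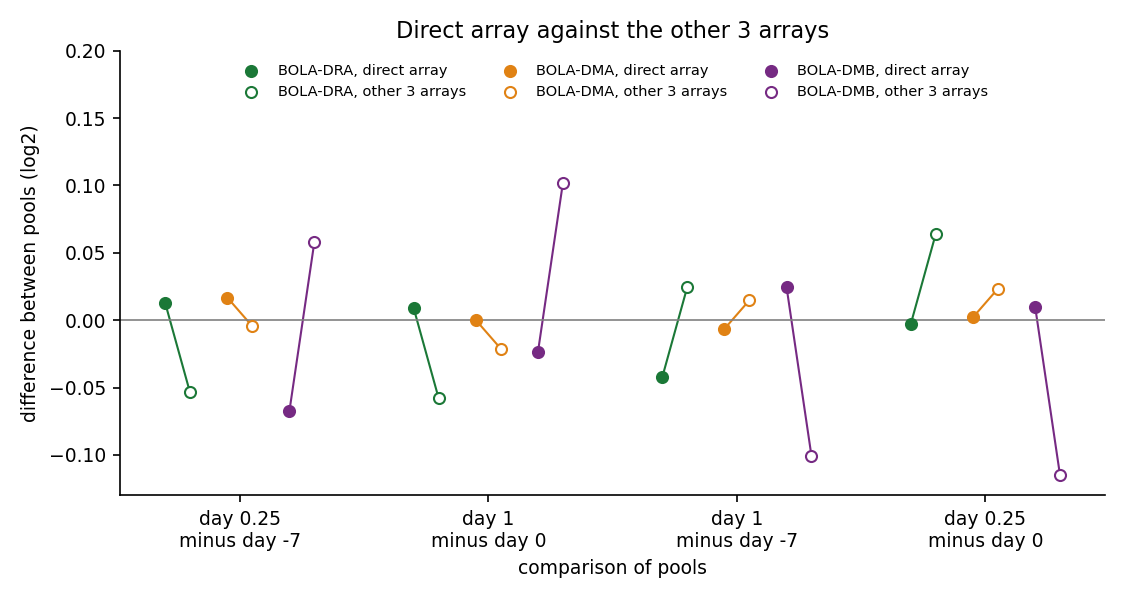
Differences between pools (log2) estimated from the direct array alone (filled) and from the path through the other 3 arrays (open) for the 4 comparisons that have a direct array. In size, the gap between the joined points equals the sum around the loop. That sum is -0.125 for BOLA-DMB, 0.0665 for BOLA-DRA and 0.0212 for BOLA-DMA.

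Neighbouring elements of the list, which can share a region of the slide, were compared through a running median over 27 elements. Around BOLA-DRA it was -0.0204 on day 0.25/day -7 and -0.00874 on day -7/day 1, and with it subtracted BOLA-DRA stood at 0.0333 and 0.0510. Around BOLA-DMB it was between -0.0101 and 0.00448 on the 4 arrays, and BOLA-DMB stayed below 0 with it subtracted. BOLA-DMA equalled its running median on day -7/day 1.

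The rest of the class II pathway was thinly represented. Of 35 listed genes of the pathway the 3 members were the only ones among the named elements, so the invariant chain, the transactivator CIITA and the beta chain of DR were not analysed here. Of 19 listed genes of the class I pathway 1 was named, TAPBPL, a relative of tapasin that edits peptides on class I molecules. It read 0.0131, -0.000877, 0.0441 and 0.00644 on the 4 arrays in the order given above. BOLA-DRA read 0.0129, 0.00880, 0.0422 and 0.00260. TAPBPL was not among the 5 named genes nearest to BOLA-DRA, which are given below.

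Among 24 listed inducers and repressors of class II, 3 were named. IFNGR2, a chain of the interferon gamma receptor, read 0.0603, 0.0163, -0.00322 and -0.000628 in the same order. STAT6, which carries the interleukin-4 signal, read -0.00761, -0.00173, -0.0141 and 0.00670. TGFBR2, a receptor of TGF-beta, which restrains class II, was above the median on all 4 arrays (0.0102, 0.0172, 0.0366 and 0.00364).

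Of 20 listed proteins of late endosomes and lysosomes, the compartment in which DM works, 5 were named: LAPTM5, CD37, CD81, ATP6V1A and LITAF. CD37, a tetraspanin of leukocytes, had the most negative difference of these for day 0.25 minus day -7, at -0.102 (limma adjusted p = 0.0944). LITAF, an endosomal membrane protein, had the most positive one, at 0.0624 (limma adjusted p = 0.211). Summarised by the median spot, LITAF passed (0.109, limma adjusted p = 0.0335), and CD37 did once day 1/day 0 had its sign reversed (-0.103, limma adjusted p = 0.00915). For day 0.25 minus day -7, 34 elements passed with the median spot and 84 with that sign reversed, against 26 of 1295 in the fit reported. The other 3 listed genes, LAPTM5, CD81 and ATP6V1A, lay between -0.0261 and 0.00527 in the fit reported.

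No gene of the 3 lists outside the members, 9 in all, passed in any of the 6 comparisons of the fit. For day 0.25 minus day -7 their median was -0.00259, with 3 positive and 6 negative, beside -0.000641 over all elements and -0.00374 over the 3 members. For day 1 minus day -7 it was 0.00991, with 5 positive and 4 negative, beside -0.00115 over all elements and -0.00683 over the members. For day 0 minus day -7 it was 0.0116, beside -0.00257 and -0.0148.

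One marker of B cells, cells rich in class II, was named of 16 listed. CD79B, a chain of the B cell receptor complex, read -0.00368, -0.00512, 0.0222 and 0.0122 on the 4 arrays, and its differences against day -7 were -0.00427 at day 0, -0.0101 at day 0.25 and -0.0158 at day 1 (limma adjusted p 0.954 to 1.00). The part of B cells in the class II values was not tested. BRD2, the bromodomain gene next to BOLA-DMA in the assembly and no part of antigen presentation, read 0.0211, 0.00397, -0.0246 and -0.00913, with differences of 0.0163, 0.0232 and 0.0225 against day -7 that did not pass.

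Likeness between genes was measured as the Euclidean distance over the 4 arrays, each divided by its SD over elements, among 442 other named genes. The genes nearest to BOLA-DRA were ABHD8, a hydrolase-fold protein (distance 0.392), DERL3, a Derlin of endoplasmic reticulum quality control (0.414), the O-mannosyltransferase POMT1 (0.423), the respiratory complex I subunit NDUFS7 (0.437) and the zinc finger protein ZNF584 (0.457), where the median gene was at 1.80. Nearest to BOLA-DMA were RABGAP1, which activates the GTPase of Rab proteins (0.243), the mitochondrial membrane protein GHITM (0.379), the zinc finger protein ZC3H7A (0.403), the integrin-linked adaptor APBB1IP (0.448) and INSIG1 of sterol sensing (0.473), with the median gene at 1.56.

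BOLA-DMB had no gene as close. The nearest were EI24, an endoplasmic reticulum protein (distance 0.665), the secreted and lysosomal glycoprotein CREG1 (0.733), the small ribosomal subunit protein RPSA (0.810), the endosomal SNARE STX7 (0.876) and AP1S2, a subunit of the AP-1 adaptor (1.00), with the median gene at 2.82. EI24 read -0.0513, -0.0192, -0.0135 and -0.0158 on the 4 arrays, and CREG1 read -0.0788, -0.0135, -0.0144 and -0.00608. BOLA-DMB read -0.0673, -0.0233, -0.0244 and -0.00999. The partner chain BOLA-DMA was the 165th nearest of the 442 to BOLA-DMB, at 2.51, and BOLA-DRA the 333rd, at 3.36. From BOLA-DRA, BOLA-DMA was at rank 104 with a distance of 1.25. These distances rest on 4 arrays that share pools and are a description only.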

How the data were processed

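Pooled neutrophil RNA was compared on 4 two-channel arrays. The deposited values are log10 ratios, 1 per spot and array. The unit was read from the values: raised to base 10, 99.8% to 100% of them are multiples of 0.0001 (tolerance 2% of the last decimal), against 3.52% to 3.99% when read as log2. The authors' background correction, normalisation and filters were not given in the sources used here. Column medians of the deposited log10 values were 0.00139, 3e-07, -0.000782 and 8.73e-05 in the order of arrays used in the text. Scale is known from the values and centring is near 0, while direction is unknown.

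Values were multiplied by 3.32 to give log2 ratios, averaged over the 3 spots of an element and centred on the array's median element. On day 0.25/day -7, 20 spots had no value, and 1295 elements were tested. Differences were fitted with limma 3.58.1 in R 4.3.3 (1 residual degree of freedom and 10.9 from moderation), with Benjamini-Hochberg adjustment over all elements tested and a threshold of 0.05. The fit was tested on simulated data. Names came from the platform annotation (486 elements with 1 gene, 9 with several, 801 unnamed here), 485 of them matched by gene ID and 1 otherwise to the RefSeq table of ARS-UCD2.0. Sequences were not used here, and coordinates served only to order the genes. Named genes are the members, every array gene of the lists and the 5 genes nearest to each member. BRD2 was chosen for its place in the gene order. Members and lists were chosen with earlier results of these data known. Python 3.11.15 with matplotlib 3.10.9 drew the figures. Alternatives were centring, the summary of spots, scaling and weights of arrays, a running median, arrays left out, turned signs and spots as units.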

Additional observations from a re-analysis of the deposited data

How the results depend on the processing

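No member passed under any of the 10 alternative fits with a test (180 values, lowest limma adjusted p 0.273), and 146 of these values kept the sign of the fit reported. Not all changes of sign were small. With its direct array turned, BOLA-DMB went to 0.0649 ± 0.01996 (SE) for day 0.25 minus day -7 and BOLA-DRA to 0.0378 ± 0.0143 (SE) for day 1 minus day -7. Moves under a turned sign follow from the turn itself, and the cause of the other moves was not tested.

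Weighted by inverse variance, BOLA-DMB stood at 0.00134, 0.00395, 0.00261, -0.0126 and -0.0152 for day 0 and day 0.25 minus day -7, day 0.25 and day 1 minus day 0, and day 1 minus day 0.25, and BOLA-DRA at 0.00312 and 0.00179 for the last 2. The F test then had 3 elements and day 0.25 minus day -7 had 0. With arrays scaled to equal SD, BOLA-DMB stood at -0.00722 for day 1 minus day 0, and 7 elements passed for day 0.25 minus day -7. With the median of the spots, BOLA-DMA stood at -0.00659 and -0.00258 for day 0 and day 0.25 minus day -7, and 1 other listed gene, LITAF, passed. That count over the other listed genes was added after seeing the data.

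Without centring, BOLA-DMA stood at 0.00141 for day 1 minus day -7, and the counts of elements for the F test and for each difference from day -7 were 0. They were also 0 with the running median subtracted, where BOLA-DRA stood at 0.00737 for day 0.25 minus day -7 and BOLA-DMA at 0.00379 for day 1 minus day -7. On the single arrays the running median moved BOLA-DRA to 0.0333 and 0.0510, BOLA-DMA to 0 on day -7/day 1 and to -0.000794 on day 1/day 0, and BOLA-DMB to -0.0278 on day 1/day 0. The count of elements off 0 on day -7/day 1 fell to 317, with BOLA-DRA (adjusted p = 0.0203, limma) and BOLA-DMB (adjusted p = 0.0290, limma) still past the threshold. With spots as units and a correlation of 0.331 within an array, 13 elements passed the F test and 9, 47 and 14 the differences of day 0, day 0.25 and day 1 from day -7.

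With the sign of day 0.25/day -7 turned, BOLA-DMA stood at -0.0128 and -0.0137 and BOLA-DMB at 0.0525 and 0.0649 for day 0 and day 0.25 minus day -7, and BOLA-DMB at 0.0268 for day 1. Between later pools BOLA-DMA stood at -0.000955, 0.00319 and 0.00414 and BOLA-DMB at 0.0124, -0.0257 and -0.0381 (day 0.25 minus day 0, day 1 minus day 0, day 1 minus day 0.25). With day -7/day 1 turned, BOLA-DRA stood at 0.0245, 0.0174 and 0.0378 against day -7 and at -0.00709, 0.0133 and 0.0204 between later pools, BOLA-DMA at 0.00852 for day 1 minus day -7 and BOLA-DMB at -0.00426 for day 1 minus day 0. Turning either of these arrays, or day 0/day 0.25, gave 0 elements for the F test and for each difference from day -7. With day 1/day 0 turned these counts were 46, 8, 84 and 31, 1 element passed for day 1 minus day 0, 1 other listed gene (CD37) passed, BOLA-DRA stood at 0.000659 for day 0.25 and BOLA-DMB at 0.00482 for day 1 minus day -7.

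With each array left out in turn, which allows no test, BOLA-DRA ran from -0.0510 to 0.0155, -0.0536 to 0.0129 and -0.0422 to 0.0243 for day 0, day 0.25 and day 1 minus day -7. BOLA-DMA ran from -0.00651 to 0.0147, -0.00434 to 0.0168 and -0.00645 to 0.0147, and BOLA-DMB from -0.0773 to 0.0477, -0.0673 to 0.0577 and -0.101 to 0.0244. For day 0.25 minus day 0, day 1 minus day 0 and day 1 minus day 0.25, BOLA-DRA ran from -0.00260 to 0.0639, -0.0577 to 0.00880 and -0.0551 to 0.0114. BOLA-DMA ran from 0.00217 to 0.0233, -0.0211 to 6.24e-05 and -0.0233 to -0.00211, and BOLA-DMB from -0.115 to 0.00999, -0.0233 to 0.102 and -0.0333 to 0.0917. Of the 12 member values on single arrays, 3 changed sign without spot 1, 1 without spot 2, 0 without spot 3 and 2 with far spots left out. Without its first spot, BOLA-DMA moved from 0.0168 to -0.000564 on day 0.25/day -7 and BOLA-DRA from 0.00260 to -0.00482 on day 0/day 0.25. Each array pairs 2 pools, and the loop fit uses that pairing. No pairing by cow was possible, because the cows were pooled and pools have no replicates. The number of arrays limits the precision, and signal over background is unknown.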
